A study of Mus musculus with 3 samples.

Results

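The serpins are a family of genes whose products mostly trap and inactivate proteases, and they were followed here across the cell types of the mouse testis. Every gene whose symbol starts with *Serpin* was taken, leaving out 1 pseudogene named with -ps, which gave 48 genes of the 36593 genes in the 3 count tables. Of these, 45 were listed in the Tomato-negative library, 41 in the cKO library, 36 in the control library and 30 in all 3. In 25 of the 48 at least 20 UMIs (unique molecular identifiers, each counting 1 captured mRNA molecule) fell in 1 cell class of 1 library. The genes among these are described one by one, and the other 23 are given by their range. On GRCm38, 21 of the 48 lie on chromosome 12, 10 on chromosome 13 and 7 on chromosome 1.

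The study used single-cell RNA-seq of testicular cells to map where stem cell factor (*Scf*, also named *Kitl*) is made and what its loss from Sertoli cells does. Cells of the cKO library were from *Amh-cre; Scf fl/fl* males aged 6 weeks, in which the *Amh* promoter drives Cre in Sertoli cells, and those of the control library from *Scf fl/fl* males of the same age. Both were depleted of haploid cells by flow cytometry. The Tomato-negative library was made from *Ddx4-creER; R26tdTomato* males aged 8 weeks, taken 4 weeks after tamoxifen had labelled germ cells and depleted of the Tomato+ cells. Mice were on a C57BL/6 background, and each library pools 3 mice and is the only one of its group. There are therefore no replicates and no test across mice: levels are given as CPM, the UMIs of a gene per 1000000 UMIs summed over a class, with exact 95% Poisson intervals, and all intervals cover counting error only. A ratio counts as past the fold where it is at least 2-fold either way, its exact interval excludes 1 and the 2 libraries hold at least 20 UMIs of the gene together.

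A serpin presents a loop that a protease cuts as it would a substrate. The cut loop then snaps into the body of the serpin and drags the protease along, which destroys both. Some family members have lost this activity: *Serpinh1* encodes HSP47, a chaperone of collagen in the endoplasmic reticulum, and *Serpinf1* encodes PEDF, a secreted factor that restrains the growth of blood vessels. In the testis, serpins meet the plasminogen activators, the proteases of the acrosome and the granule proteases of immune cells.

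After limits of 200 to 7500 genes and 10% mitochondrial counts, 7018 cKO cells, 5087 Tomato-negative cells and 5976 control cells were kept, with median depths of 6326 UMIs in cKO, 10237 UMIs in Tomato-negative and 5910 UMIs in control cells. Clusters were built without the *Serpin* genes and named from marker genes, and a class is called by its type followed by "-like". The Tomato-negative library held 651 Sertoli-like cells, whereas the cKO library had 25 and the control library 5. *Kitl* in these cells stood at 37.2 CPM (17 to 70.7, 9 UMIs) in the cKO library, 122 CPM (113 to 130) in the Tomato-negative library and 222 CPM (111 to 398, 11 UMIs) in the control library. Clusters that carried markers of several types held 206 cKO, 142 Tomato-negative and 87 control cells and were left out, as were 118 cKO, 6 Tomato-negative and 18 control cells that stayed unnamed. The cKO and Tomato-negative libraries shared 13 cell barcodes, the cKO and control libraries 15, and the Tomato-negative and control libraries 9. Only classes with at least 30 cells in a library are compared unless a cell number is given.

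*Serpin* transcripts were most abundant in the interstitium. Summed over the 48 genes, Tcf21 stromal-like cells had 2539 CPM in the cKO library, 3840 CPM in the Tomato-negative library and 2821 CPM in the control library. Myoid-like cells had 1355 CPM in cKO, 1505 CPM in Tomato-negative and 1514 CPM in control cells, and vascular smooth muscle-like cells 1492 CPM in cKO, 1036 CPM in Tomato-negative and 1384 CPM in control cells. Leydig-like cells had 2137 CPM in 146 cKO cells and 1223 CPM in 30 Tomato-negative cells, and Tomato-negative Sertoli-like cells had 621 CPM. Germ cells lay lower: undifferentiated spermatogonia-like cells had 115 CPM in the cKO, 105 CPM in the Tomato-negative and 93.2 CPM in the control library. The sum in late spermatocyte-like cells was 300.0 CPM in the Tomato-negative and 311 CPM in the control library, nearly all of it *Serpinb6a* (295 CPM in Tomato-negative and 305 CPM in control cells).

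**Figure D1:**
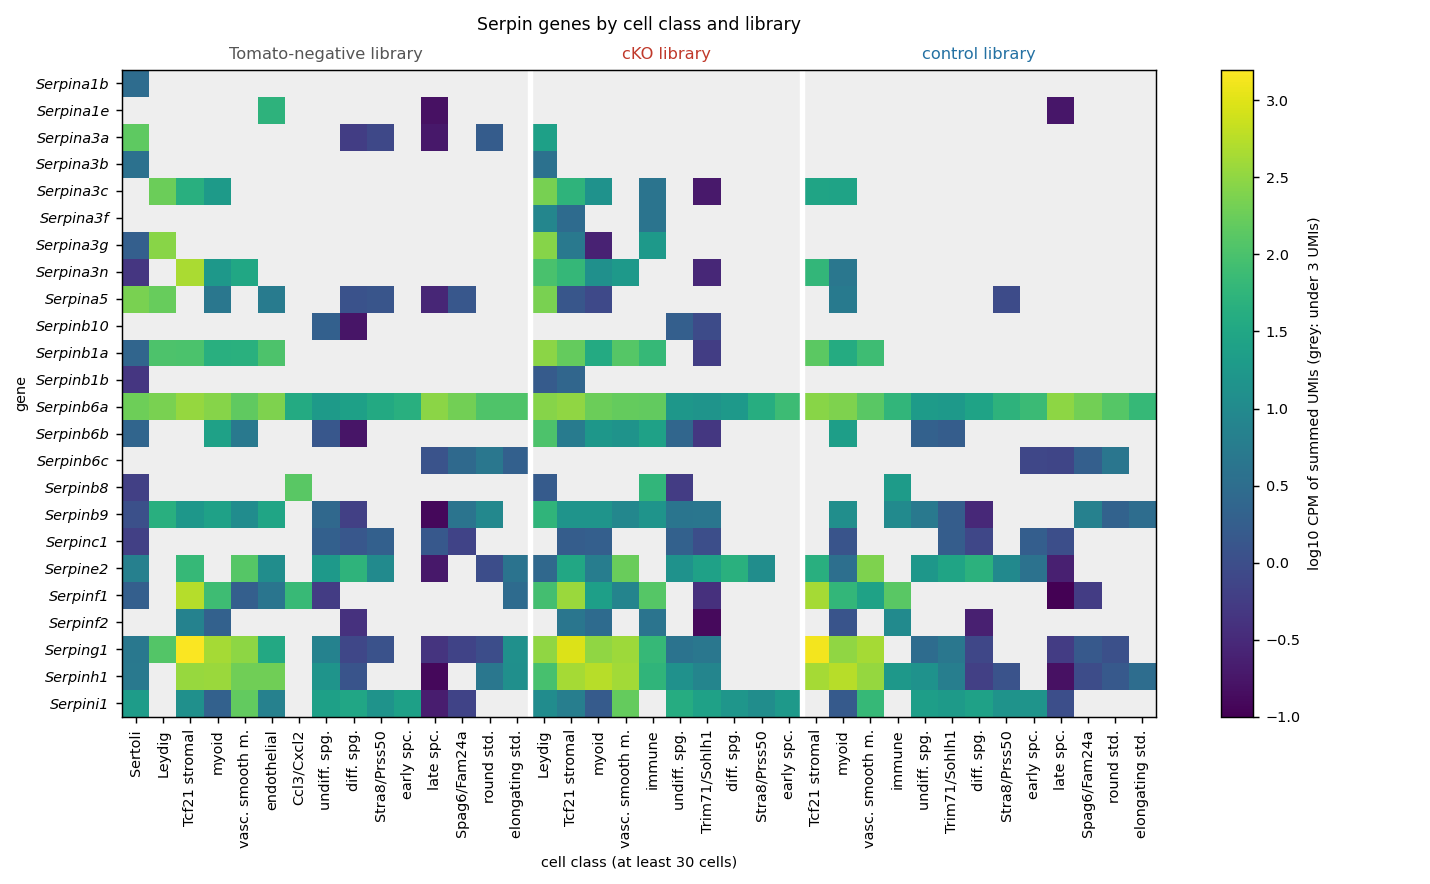
Levels of the described Serpin genes (rows) in each cell class with at least 30 cells (columns), by library, as log10 of the CPM of summed UMIs; grey marks fewer than 3 UMIs. Serping1 and Serpinh1 are high in the stromal, myoid and smooth muscle columns, and Serpinf1 is highest in the stromal columns. Of the clade A genes, Serpina5 is high in the Sertoli and Leydig columns, Serpina3a in the Sertoli column, Serpina3c and Serpina3g in the Leydig columns and Serpina3n in the Tomato-negative stromal column. Serpinb6a fills every column, with 295 and 305 CPM in late spermatocyte-like cells.

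*Serpina5*, *Serpina3a*, *Serpina3b* and *Serpina3c*, of clade A, sit beside each other on chromosome 12, and their promoters are shown to set neighbours with different levels side by side. The sequences are from RefSeq on GRCm38.p6, 250 bases before to 50 after the start site, 5′ to 3′ on the strand of the gene. *Serpina5* (ENSMUSG00000041550, chr12:104101113-104106137, plus strand) encodes the protein C inhibitor, which also blocks the acrosomal protease acrosin. *Serpina3a* (chr12:104112724-104121896, plus strand) and *Serpina3b* (chr12:104127996-104139545, plus strand) follow it, and *Serpina3c* (chr12:104146382-104153870) lies on the minus strand behind them. Capitals mark AGAACA, a core element bound by the androgen receptor, read on either strand (TGTTCT on the other).
Serpina5, chr12:104100863-104101162: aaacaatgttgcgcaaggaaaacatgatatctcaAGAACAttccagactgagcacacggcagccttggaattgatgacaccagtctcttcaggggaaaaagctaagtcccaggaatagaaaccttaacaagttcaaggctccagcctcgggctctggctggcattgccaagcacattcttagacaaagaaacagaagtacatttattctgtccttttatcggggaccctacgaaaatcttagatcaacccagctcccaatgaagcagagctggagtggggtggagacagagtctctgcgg
Serpina3a, chr12:104112474-104112773: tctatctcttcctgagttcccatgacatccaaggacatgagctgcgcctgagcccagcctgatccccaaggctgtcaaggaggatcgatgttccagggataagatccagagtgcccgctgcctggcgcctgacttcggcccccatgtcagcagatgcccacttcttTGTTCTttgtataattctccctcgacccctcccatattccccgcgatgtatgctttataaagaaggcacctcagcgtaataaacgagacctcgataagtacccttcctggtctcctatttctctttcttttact
Serpina3b, chr12:104127746-104128045: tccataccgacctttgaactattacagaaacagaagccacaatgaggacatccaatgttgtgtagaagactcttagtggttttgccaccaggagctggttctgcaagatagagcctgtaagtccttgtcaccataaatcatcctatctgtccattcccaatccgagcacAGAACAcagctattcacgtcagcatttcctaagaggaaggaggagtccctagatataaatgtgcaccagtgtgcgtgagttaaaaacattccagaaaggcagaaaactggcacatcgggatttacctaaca
Serpina3c, chr12:104153823-104154122: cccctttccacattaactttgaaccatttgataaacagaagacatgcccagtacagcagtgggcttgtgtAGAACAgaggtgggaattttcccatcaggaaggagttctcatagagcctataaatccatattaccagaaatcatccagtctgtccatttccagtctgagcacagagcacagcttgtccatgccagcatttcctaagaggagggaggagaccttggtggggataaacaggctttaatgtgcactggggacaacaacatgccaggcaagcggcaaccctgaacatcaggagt

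All 4 windows held an AGAACA match, starting at positions -216, -84, -81 and -180 from the start site. The same letters stood in 19.0% of the 27025 promoters of the table, in 21 of the 40 *Serpin* genes with a promoter and in 11 of the 22 described genes with one. The window of *Serpina3g* held none. A TATAAA box stood in *Serpina3a*, *Serpina3b* and *Serpina3c* and in 14.2% of all promoters. AAGGTC, an element bound by Nr5a1 (SF1), stood in *Serpina3b* and *Serpina3c* and in 12.3% of all. ACAAAG, a Sox site, stood in *Serpina5* and *Serpina3a* and in 18.7% of all. A match shows only that the letters are there.

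In Sertoli-like cells, the nurse cells of the tubule, *Serpina5* had the highest level of the members, followed by *Serpinb6a*, which every class carried (188 CPM, 177 to 198, in the Tomato-negative library), and *Serpina3a*. *Serpina5* had 1464 UMIs and 225 CPM (214 to 237) in the 651 Tomato-negative Sertoli-like cells, against 0.279 CPM (0.127 to 0.529) in late spermatocyte-like cells and 0 UMIs in Tcf21 stromal-like cells of that library. The level was 808-fold that of late spermatocyte-like cells (424 to 1770), and at least 40.8-fold higher than in Tcf21 stromal-like cells, taking 3 UMIs over the class as the limit. *Serpina5* was seen in 47.3% (43.4 to 51.2) of Sertoli-like cells, at a median depth of 6815 UMIs, and in 1.61% of late spermatocyte-like cells, at 73939 UMIs. With every cell thinned to 1000 UMIs the shares were 14.1% of 630 Sertoli-like cells and 0.204% of 489 late spermatocyte-like cells. With an upper limit of 3500 genes per cell, which takes out the deeper cells, the level in Tomato-negative Sertoli-like cells was 98.5 CPM. In the few Sertoli-like cells of the haploid-depleted libraries, *Serpina5* had 14 UMIs and 57.9 CPM (31.7 to 97.2) in 25 cKO cells and 4 UMIs and 80.8 CPM (22 to 207) in 5 control cells.

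*Serpina3a*, of the antichymotrypsin group, had 946 UMIs and 145 CPM (136 to 155) in Tomato-negative Sertoli-like cells and 0.186 CPM in late spermatocyte-like cells, 783-fold apart (358 to 2138). It was seen in 19.5% (16.5 to 22.8) of the Sertoli-like cells, a smaller share than *Serpina5*, and in 7.3% once thinned. In the 25 cKO Sertoli-like cells it had 0 UMIs, which allows up to 12.4 CPM at 3 UMIs, and in the 5 control cells also 0, which allows up to 60.6 CPM. The cKO and Tomato-negative mice differed in age, genotype and sort, which cannot be told apart here.

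The Tomato-negative Sertoli-like cells formed 2 clusters. Cluster S07 (237 cells, led by *Clu*, *Cst12* and *Ptgds*) had 308 CPM of *Serpina5* (292 to 326), against 85.2 CPM (74 to 97.7) in cluster S03 (414 cells, led by *Defb36* and *Defb19*), a ratio of 3.62 (3.12 to 4.21). *Serpina3a* had 181 CPM in S07 and 86.1 CPM in S03, a ratio of 2.1 (1.8 to 2.46). S03 held 10065 CPM of the spermatid transcript *Prm1*, against 237 CPM in S07, and 2535 CPM of *Clu*, against 10051 CPM in S07. The part of this spermatid RNA in the result was not tested. *Serpina3b* had 3.69 CPM (24 UMIs) in Tomato-negative Sertoli-like cells and 3.73 CPM in cKO Leydig-like cells. *Serpina1b*, a mouse alpha-1-antitrypsin gene, had 3.08 CPM (20 UMIs) in Sertoli-like cells, but 23.1% of the 50-base words in its last 400 bases also occur in another gene, so its reads may be shared with its copies.

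Leydig-like cells, which make testosterone, carried *Serpina5* too, together with *Serpina3g* and *Serpina3c*. *Serpina5* had 431 UMIs and 230 CPM (209 to 253) in 146 cKO Leydig-like cells and 11 UMIs and 166 CPM (82.9 to 297) in 30 Tomato-negative Leydig-like cells, a ratio of 1.38 (0.766 to 2.79). In the cKO library this was 170-fold (94.3 to 344) the 1.35 CPM of Tcf21 stromal-like cells and 269-fold (145 to 564) the 0.855 CPM of myoid-like cells, and it stood in 74.0% (66.1 to 80.9) of Leydig-like cells. The Sertoli transcript *Clu* reached 1252 CPM in the cKO Leydig-like cells and 3227 CPM in the cKO Sertoli-like cells, while *Serpina5* had 230 CPM in the Leydig-like and 57.9 CPM in the Sertoli-like cells. In the Tomato-negative library *Clu* had 2732 CPM in Leydig-like and 7245 CPM in Sertoli-like cells, and *Serpina5* 166 CPM in Leydig-like and 225 CPM in Sertoli-like cells. The part of Sertoli transcripts in the Leydig-like level was not tested.

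*Serpina3g* (chr12:104236245-104241939), which inhibits cysteine cathepsins in mouse T cells, had 277 CPM (254 to 302) in cKO and 287 CPM (173 to 448, 19 UMIs) in Tomato-negative Leydig-like cells, a ratio of 0.967 (0.613 to 1.62). It was 56.5-fold (40.9 to 80.1) higher in cKO Leydig-like cells than in cKO Tcf21 stromal-like cells, which had 4.9 CPM, and was seen in 77.4% of Leydig-like and 1.6% of stromal-like cells. Of its 50-base words, 21.8% occur in neighbouring copies. *Serpina3c* had 219 CPM (198 to 241) in cKO and 181 CPM (93.6 to 316, 12 UMIs) in Tomato-negative Leydig-like cells, a ratio of 1.21 (0.683 to 2.35), with 81.5% of cKO Leydig-like cells positive. It was lower but present in Tcf21 stromal-like cells, at 54.7 CPM in cKO, 44.1 CPM in Tomato-negative and 28.9 CPM in control cells. Within the cKO stromal-like cells, *Serpina3c* was 3.07-fold (2.18 to 4.44) higher in cluster S01, led by *Dcn*, *Mgp* and *Nrk*, than in cluster S04, led by *Gsn*, *Dcn* and *Clec3b*. *Serpina3f*, their neighbour, had 8.53 CPM in cKO Leydig-like cells and 2.94 CPM in cKO Tcf21 stromal-like cells, where its 24 UMIs came from 6 cells. *Serpina3a* had 24.0 CPM (45 UMIs) in cKO Leydig-like cells. The cKO Leydig-like cells all fell in cluster S11 and the Tomato-negative ones in S17, at median depths of 12821 UMIs in the cKO and 1416 UMIs in the Tomato-negative cells. With an upper limit of 3500 genes per cell or a mitochondrial limit of 5%, 29 Tomato-negative Leydig-like cells were left, under the minimum of 30, so that the class was not compared in that library.

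*Serpina3n* (chr12:104406729-104414329), an antichymotrypsin raised by inflammation in mice, followed another pattern. It had 472 CPM (416 to 534) in Tomato-negative Tcf21 stromal-like cells, against 63.0 CPM (57.7 to 68.7) in cKO and 60.9 CPM (36.7 to 95.1) in control ones. In cluster S09, which both the Tomato-negative (99 cells) and the control library (77 cells) held, it had 413 CPM in Tomato-negative and 52.6 CPM in control cells, a ratio of 7.86 (4.49 to 15). *Serpina3n* also reached 97.0 CPM in cKO Leydig-like cells, against 15.1 CPM (1 UMI) in Tomato-negative ones. The Tomato-negative mice were older and had received tamoxifen, and their cells were sorted in another way, so the library, age, treatment and sort cannot be told apart.

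**Figure D2:**
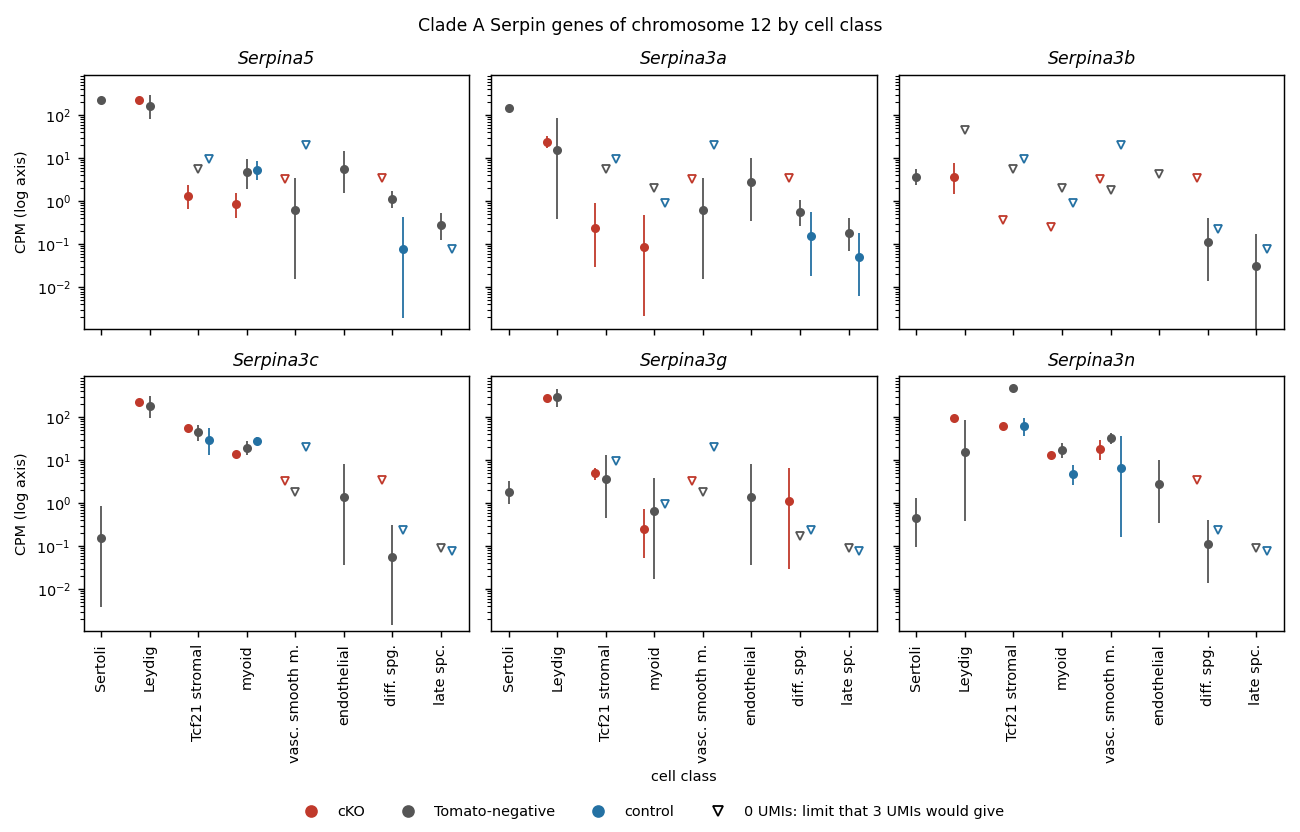
CPM (log axis) of 6 clade A genes of chromosome 12 in the somatic and 2 germ cell classes, 1 point per library with at least 30 cells and its exact 95% Poisson interval; open triangles mark 0 UMIs, drawn at the CPM that 3 UMIs would give. Serpina5 stands high in Sertoli-like (225 CPM, Tomato-negative) and Leydig-like cells (230 CPM, cKO), Serpina3a in Sertoli-like cells, Serpina3c and Serpina3g in Leydig-like cells, and Serpina3n in Tomato-negative stromal-like cells (472 CPM).

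Tcf21 stromal-like cells, interstitial fibroblast-like cells, carried *Serping1*, *Serpinf1* and *Serpinh1* as the 3 most abundant members in the cKO and control libraries. *Serping1* (ENSMUSG00000023224, chr2:84765387-84775444, minus strand), the inhibitor of the complement proteases C1r and C1s, had 939 CPM (918 to 960) in cKO, 1516 CPM (1414 to 1623) in Tomato-negative and 1315 CPM (1190 to 1448) in control stromal-like cells. It was seen in 95.1% of cKO, 100% of Tomato-negative and 92.9% of control stromal-like cells. The same gene had 313 CPM in cKO, 426 CPM in Tomato-negative and 321 CPM in control myoid-like cells, and 3.92 CPM in cKO, 7.22 CPM in Tomato-negative and 3.01 CPM in control undifferentiated spermatogonia-like cells.

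*Serpinf1* (chr11:75409769-75422701, PEDF) had 374 CPM (361 to 387) in cKO, 549 CPM (489 to 615) in Tomato-negative and 423 CPM (354 to 502) in control stromal-like cells. It had 23.2 CPM in cKO, 77.3 CPM in Tomato-negative and 59.3 CPM in control myoid-like cells. Beside it, *Serpinf2* (chr11:75431732-75439591), which encodes the plasmin inhibitor alpha-2-antiplasmin, had 4.41 CPM (36 UMIs) in cKO stromal-like cells and 2.99 CPM (35 UMIs) in cKO myoid-like cells.

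*Serpinh1* (chr7:99345376-99353239), the collagen chaperone HSP47, was spread over the collagen-making cells. It had 430 CPM in cKO, 355 CPM in Tomato-negative and 433 CPM in control stromal-like cells, and 556 CPM in cKO, 375 CPM in Tomato-negative and 566 CPM in control myoid-like cells. Tomato-negative Sertoli-like cells had 5.07 CPM of *Serpinh1*, 73.9-fold (52 to 108) less than myoid-like cells, whereas stromal-like and myoid-like cells of that library differed by 1.06-fold (0.897 to 1.25).

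The clade B genes of chromosome 13 have products that stay inside the cell. Among them, *Serpinb1a* (chr13:32842092-32851185), an inhibitor of neutrophil proteases, had 160 CPM in cKO, 103 CPM in Tomato-negative and 138 CPM in control stromal-like cells. In Leydig-like cells *Serpinb1a* had 300 CPM (276 to 326) in cKO and 106 CPM (42.5 to 218, 7 UMIs) in Tomato-negative cells. *Serpinb6a* (chr13:33917918-34002794), an inhibitor of trypsin-like proteases and cathepsin G, had 319 CPM in cKO, 347 CPM in Tomato-negative and 285 CPM in control stromal-like cells. Within cKO stromal-like cells, both were higher in cluster S04 than in S01, *Serpinb1a* by 1.99-fold (1.77 to 2.23) and *Serpinb6a* by 2.19-fold (2.02 to 2.37). *Serpinb6b* had 108 CPM in cKO and 30.2 CPM (3.66 to 109, 2 UMIs) in Tomato-negative Leydig-like cells, and 16.8 CPM in cKO myoid-like cells. It had 157 CPM (111 to 216, 38 UMIs in 9 cells) in the 25 cKO Sertoli-like cells, against 2.31 CPM (1.29 to 3.8) in Tomato-negative Sertoli-like cells. *Serpinb1b* had 2.45 CPM (20 UMIs) in cKO stromal-like cells.

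In the vessel wall, *Serpini1* and *Serpine2* were highest in the smooth muscle-like cells. *Serpini1* (chr3:75557547-75643495) encodes neuroserpin, an inhibitor of tissue plasminogen activator known from neurons, and had 160 CPM (135 to 188) in cKO, 153 CPM (135 to 174) in Tomato-negative and 66.2 CPM (31.7 to 122, 10 UMIs) in control vascular smooth muscle-like cells. Myoid-like cells, the other contractile class, had 1.63 CPM in cKO, 2.02 CPM in Tomato-negative and 1.55 CPM in control cells. *Serpine2* (chr1:79794197-79861180), protease nexin 1, which blocks thrombin and plasminogen activators, had 177 CPM (150 to 206) in cKO, 126 CPM (109 to 145) in Tomato-negative and 245 CPM (172 to 338) in control vascular smooth muscle-like cells. Tcf21 stromal-like cells had 33.6 CPM of *Serpine2* in cKO, 66.2 CPM in Tomato-negative and 44.9 CPM in control cells, and smooth muscle-like cells exceeded them 1.91-fold (1.33 to 2.8) in the Tomato-negative library. It was higher in cluster S14 (led by *Rgs5*, *Higd1b* and *Pdgfrb*) over cluster S06 (led by *Crip1* and *Mustn1*): 390 against 71.4 CPM in the cKO library (5.46-fold, 3.82 to 7.94), 325 against 118 CPM in the Tomato-negative library (2.76-fold, 1.67 to 4.34) and 641 against 142 CPM in the control library (4.52-fold, 2.25 to 9.18). These clusters are small: S14 held 66 cKO, 15 Tomato-negative and 10 control cells and S06 held 92 cKO, 234 Tomato-negative and 27 control cells. *Serpina1e*, another alpha-1-antitrypsin gene, had 51.2 CPM (35.9 to 70.9) from 15 of 87 Tomato-negative endothelial-like cells, and 17.2% of its 50-base words occur in its copies.

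Set against all genes, 17 of the 48 members had at least 50 UMIs in the Tomato-negative classes and 3 of them were at least 4-fold higher in 1 class than in every other, where 518 of 20024 genes (2.59%) were. *Serpina3n* and *Serpinf1* were so in Tcf21 stromal-like cells, which held 21 such genes (0.105%), and *Serpina3c* in Leydig-like cells, on 12 UMIs. For *Serpina3a*, *Serpinb8* and *Serpini1* the 30 shallow Leydig-like cells set the limit, as 3 UMIs there already make 45.3 CPM. *Serpina5* did not pass because of its own level in Leydig-like cells, 166 CPM (11 UMIs) against 225 CPM in Sertoli-like cells. With that class left out, a choice made after the data were seen, 6 members passed, against 5.84% of all genes: *Serpina5* and *Serpina3a* in Sertoli-like cells, *Serpinb8* in the Ccl3/Cxcl2 cells, *Serpini1* in vascular smooth muscle-like cells, and *Serpina3n* and *Serpinf1* as before. In the cKO library 3 members passed, all in Leydig-like cells (*Serpina5*, *Serpina3g* and *Serpinb6b*), against 3.12% of all genes.

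Along the germ cells, *Serpinb6a*, *Serpine2* and *Serpini1* had stage patterns that ran alike in the control and Tomato-negative libraries. *Serpinb6a* was low in spermatogonia and high in late spermatocytes. It had 16.6 CPM in cKO, 19.6 CPM in Tomato-negative and 20.5 CPM in control undifferentiated spermatogonia-like cells, and 18.4 CPM in cKO, 24.3 CPM in Tomato-negative and 27.5 CPM in control differentiating spermatogonia-like cells. In the cells led by *Stra8* and *Prss50*, which enter meiosis, it had 41.7 CPM in cKO, 35.0 CPM in Tomato-negative and 51.0 CPM in control cells, and in early spermatocyte-like cells 76.5 CPM in cKO, 45.2 CPM in Tomato-negative and 73.9 CPM in control cells. Late spermatocyte-like cells had 295 CPM (289 to 301) in the Tomato-negative and 305 CPM (300.0 to 311) in the control library, and the level of undifferentiated spermatogonia-like cells was exceeded 15.1-fold (12.7 to 17.9) in the Tomato-negative and 14.9-fold (11 to 20.7) in the control library. *Serpinb6a* then stood at 205 CPM in Tomato-negative and 203 CPM in control cells led by *Spag6* and *Fam24a*. Round spermatid-like cells had 112 CPM in the Tomato-negative and 125 CPM in the control library, which late spermatocyte-like cells exceeded 2.63-fold (2.36 to 2.94) in the Tomato-negative and 2.44-fold (2.24 to 2.65) in the control library. Of the 50-base words of *Serpinb6a*, 1.45% occur in other genes, *Serpinb6c* and *Serpinb6b* among them.

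*Serpine2* peaked in differentiating spermatogonia. It had 47.2 CPM in cKO, 54.1 CPM in Tomato-negative and 50.4 CPM in control differentiating spermatogonia-like cells, against 14 CPM in cKO, 18.1 CPM in Tomato-negative and 16.5 CPM in control undifferentiated ones, 3-fold apart in the Tomato-negative (2.49 to 3.63) and 3.04-fold in the control library (2.15 to 4.46). The cells led by *Stra8* and *Prss50* had 11.4 CPM in cKO, 10.3 CPM in Tomato-negative and 9.95 CPM in control cells, and late spermatocyte-like cells 0.186 CPM in the Tomato-negative and 0.23 CPM in the control library. Differentiating spermatogonia-like cells were not uniform: *Serpine2* had 69.1 CPM in cluster G04 and 33.4 CPM in G07 of the Tomato-negative library (2.07-fold, 1.78 to 2.41), and 75.6 CPM in G03 and 14 CPM in G01 of the control library (5.39-fold, 3.91 to 7.62).

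*Serpini1* was shared by spermatogonia and the cells up to early spermatocytes. It had 40.3 CPM (35.1 to 46) in cKO, 24.3 CPM (20.8 to 28.2) in Tomato-negative and 22.6 CPM (16.4 to 30.2) in control undifferentiated spermatogonia-like cells, and 16.1 CPM in cKO, 30.1 CPM in Tomato-negative and 25.8 CPM in control differentiating ones. The cells led by *Stra8* and *Prss50* had 11.4 CPM in cKO and 14.2 CPM in control cells. Early spermatocyte-like cells had 17.7 CPM (3 UMIs) in cKO, 24.1 CPM (8 UMIs) in Tomato-negative and 14.8 CPM (57 UMIs) in control cells. Outside the germ cells, Tomato-negative Sertoli-like cells had 20.9 CPM (136 UMIs). In late spermatocyte-like cells *Serpini1* was down to 0.217 CPM in the Tomato-negative and 1.02 CPM in the control library. Differentiating spermatogonia-like cells exceeded these levels 139-fold (66.9 to 347) in the Tomato-negative and 25.3-fold (18.2 to 36) in the control library. *Serpinb9*, an inhibitor of granzyme B, had 4.14 CPM (24 UMIs) in the Tomato-negative cells led by *Spag6* and *Fam24a*, against 0.124 CPM in late spermatocyte-like cells of that library. The control library had 6.99 CPM (37 UMIs) in the cells led by *Spag6* and *Fam24a*, against 0 UMIs in late spermatocyte-like cells. The ratio was 33.4 (11.5 to 132) in the Tomato-negative library and at least 91.3-fold in the control library, taking 3 UMIs over the class as the limit. Round spermatid-like cells had 9.02 CPM (5.94 to 13.1) of *Serpinb9* in the Tomato-negative and 2.1 CPM (1.01 to 3.86) in the control library. They joined 2 clusters in unlike shares. In G17 *Serpinb9* had 2.63 CPM (1.06 to 5.43) in 64 Tomato-negative and 1.51 CPM (0.607 to 3.11) in 106 control cells. In G18 it had 59.5 CPM (20 UMIs) in 98 Tomato-negative and 23.6 CPM (3 UMIs) in 46 control cells. Undifferentiated spermatogonia-like cells had 4.29 CPM in cKO, 2.64 CPM in Tomato-negative and 5.01 CPM in control cells. Several somatic classes held more than the germ cell classes, with 55.4 CPM in cKO Leydig-like cells and in the Tomato-negative library 25.6 CPM in myoid-like cells and 29.9 CPM in endothelial-like cells.

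The remaining members seen in germ cells were scarce. *Serpinb6c* had 4.68 CPM (14 UMIs) in Tomato-negative and 4.41 CPM (21 UMIs) in control round spermatid-like cells, 3.97-fold (1.99 to 7.5) over late spermatocyte-like cells in the Tomato-negative and 5.76-fold (3.14 to 10.4) in the control library, and 10.2% of its 50-base words occur in its copies. *Serpinb10*, which the annotation lists as a polymorphic pseudogene on chromosome 1, had 1.87 CPM in cKO, 1.94 CPM in Tomato-negative and 1 CPM (2 UMIs) in control undifferentiated spermatogonia-like cells. Its neighbour *Serpinb2* shares 29% of its 50-base words with it. *Serpinc1*, antithrombin, had 1.42 CPM (46 UMIs) in Tomato-negative and 1.02 CPM (40 UMIs) in control late spermatocyte-like cells, a level near that in spermatogonia (1.94 CPM in Tomato-negative undifferentiated spermatogonia-like cells). It was not particular to germ cells, with 1.88 CPM (22 UMIs) in cKO myoid-like and 1.72 CPM (14 UMIs) in cKO Tcf21 stromal-like cells. The cKO Leydig-like cells had 0.533 CPM (1 UMI).

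**Figure D3:**
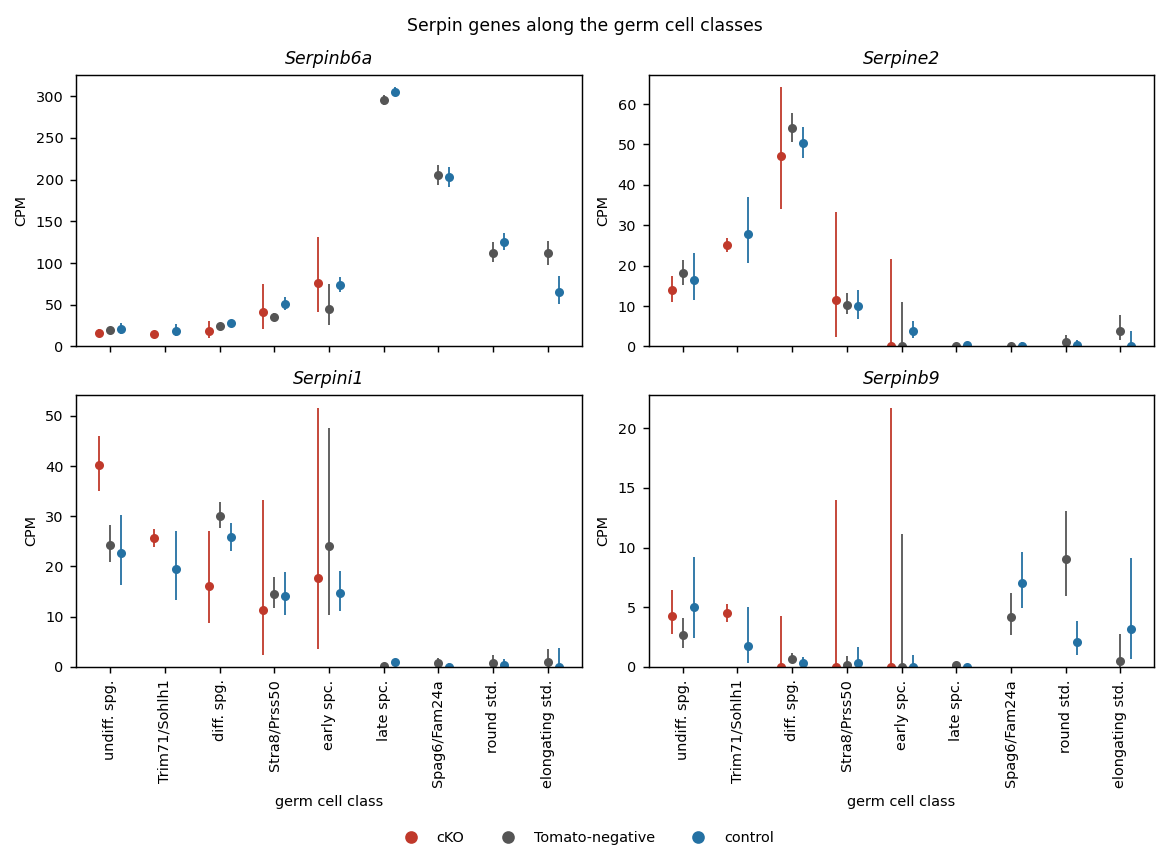
CPM of Serpinb6a, Serpine2, Serpini1 and Serpinb9 in the germ cell classes, ordered from undifferentiated spermatogonia to elongating spermatids, 1 point per library with at least 30 cells and its exact 95% Poisson interval. Serpinb6a is highest in late spermatocyte-like cells (295 and 305 CPM), Serpine2 in differentiating spermatogonia-like cells (47.2 to 54.1 CPM), and Serpini1 is nearly gone after the spermatogonia and early spermatocytes.

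The cKO and control libraries were then compared within each class, to ask what loss of *Scf* from Sertoli cells goes with in the *Serpin* genes of the cells around them. The classes do not rest on the same clusters: cKO stromal-like cells fell mostly in S01 and S04 and control ones in S09, cKO myoid-like cells in S00 and control ones in S02, and cKO undifferentiated spermatogonia-like cells in G11 and control ones in G09 and G11. In Tcf21 stromal-like cells (1567 cKO and 98 control cells) 16 members had enough UMIs and 0 passed the fold, against 1.74% of genes higher and 3.48% lower in cKO over all 12084 genes compared. The median log2 ratio was 0.22 over the members and -0.08 over all genes. *Serping1* came nearest among the abundant members, with 939 CPM in cKO and 1315 CPM in control cells (ratio 0.714, 0.647 to 0.791). Under 5 alternatives *Serpina3c* passed, on 7 or 8 control UMIs, with ratios of 2.04 to 2.38.

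In myoid-like cells (2090 cKO and 630 control cells), the contractile cells around the tubule, 3 of 15 members passed. *Serpina3n* was higher, at 12.8 CPM in cKO and 4.66 CPM in control cells (2.75-fold, 1.62 to 5.04), where 3.19% of genes were higher. *Serpinf1* was lower, at 23.2 CPM in cKO and 59.3 CPM in control cells (0.391, 0.324 to 0.473), as was *Serpina5*, at 0.855 CPM in cKO and 5.28 CPM in control cells (0.162, 0.0663 to 0.375), where 6.73% of genes were lower. The 8 Tcf21 stromal markers summed to 4170 CPM in cKO and 4777 CPM in control myoid-like cells, with 7 of 8 above 0 in both and *Dpt* at 0. Their part in the result was not tested. *Serpina3n* did not pass when the cells were clustered at 2 times the resolution (ratio 1.17) or library by library (1.87), nor did *Serpinf1* in the second of these (0.554). With every cell thinned to 1000 UMIs none of the 3 passed. The ratios were 1.8 for *Serpina3n*, 0.625 for *Serpinf1* and 0.075 for *Serpina5*, the last on 1 UMI in cKO and 4 UMIs in control cells. *Serpina3c* passed there and under 2 other alternatives, lower in cKO at 0.417 to 0.497. *Serpinh1* had 556 CPM in cKO and 566 CPM in control myoid-like cells.

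In vascular smooth muscle-like cells (158 cKO and 37 control cells) *Serpini1* was the 1 of 7 members that passed, at 160 CPM in cKO and 66.2 CPM in control cells (2.42-fold, 1.28 to 5.15), against 2.89% of genes higher, and thinned to 1000 UMIs per cell its ratio of 1.67 did not pass. Within cluster S06 it had 136 CPM in cKO and 66.8 CPM in control cells (2.04-fold, 0.988 to 4.88), and within S14 208 CPM in cKO cells and 64.1 CPM, from 2 UMIs, in control cells. In undifferentiated spermatogonia-like cells (400 cKO and 190 control cells) *Serpini1* had 40.3 CPM in cKO and 22.6 CPM in control cells and did not pass (1.79-fold, 1.29 to 2.52). None of 9 members passed in the cells led by *Trim71* and *Sohlh1* (1773 cKO and 137 control cells), against 3.65% of all genes in either direction. The count was 0 of 4 in differentiating spermatogonia-like cells (4.04% of all genes), 0 of 3 in the cells led by *Stra8* and *Prss50* (3.33%) and 0 of 2 in early spermatocyte-like cells (3.28%). When each library was clustered on its own, 5 members passed in differentiating spermatogonia-like cells (*Serpinb6a*, *Serpinb9*, *Serping1* and *Serpinh1* among them), where 17.9% of all genes were higher and 18.9% lower, and *Serpine2*, higher, in the cells led by *Stra8* and *Prss50*, where 13.4% of all genes were higher. That clustering put 914 cKO and 1876 control cells in the differentiating class, against 109 cKO and 1795 control cells before. The cKO cells led by *Trim71* and *Sohlh1* went from 1773 to 0, and those led by *Stra8* and *Prss50* from 42 to 186.

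**Figure D4:**
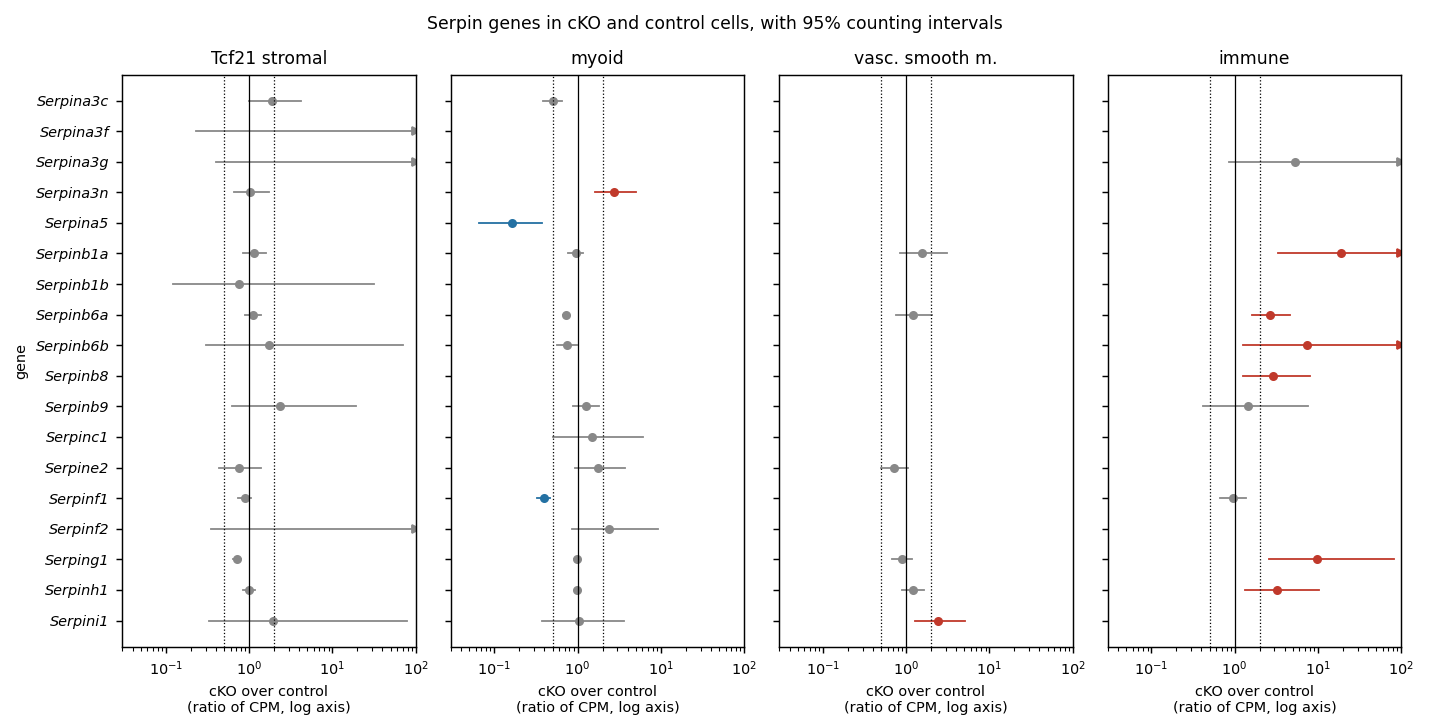
Ratio of CPM in cKO over control cells (log axis) for the described Serpin genes with at least 20 UMIs over both libraries in 4 somatic classes, with exact 95% counting intervals; red points passed 2-fold higher, blue 2-fold lower, grey neither, and the dotted lines mark 2-fold. The stromal panel is all grey, the myoid panel has 1 red and 2 blue genes, and 6 genes are red in immune-like cells.

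Immune-like cells (305 cKO and 138 control cells) had the most members past the fold, 6 of 10, all higher in cKO, where 8.02% of all genes were. The median log2 ratio was 1.49 over the members and -0.01 over all genes. *Serpinb6a* had 155 CPM in cKO and 58.0 CPM in control cells (2.67-fold), *Serpinb8* 58.5 CPM in cKO and 20.5 CPM in control cells (2.86-fold), and *Serpinh1* 55.2 CPM in cKO and 17.1 CPM in control cells (3.24-fold). The others rest on few control UMIs: *Serpinb1a* had 65.1 CPM in cKO and 1 UMI in control cells (19.1-fold, 3.33 to 763), *Serpinb6b* 25.6 CPM in cKO and 1 UMI in control cells (7.48-fold, 1.25 to 305), and *Serping1* 65.9 CPM in cKO and 2 UMIs in control cells (9.66-fold, 2.59 to 81.1). With a mitochondrial limit of 5% *Serpinb1a* had 9 control UMIs and a ratio of 2.13 (1.07 to 4.83). With every cell thinned to 1000 UMIs 0 members passed. *Serpinh1* then had a ratio of 0.473 (0.0542 to 5.66) on 3 UMIs in cKO and 2 UMIs in control cells. Like *Serpinb1a*, *Serpinb6b* and *Serping1* there, it was under the minimum of 20 UMIs.

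The immune-like cells of the 2 libraries were not the same mixture of clusters. Cluster S05, led by *Cd74*, *H2-Eb1* and *C1qa*, held 216 of the cKO and 135 of the 138 control cells. Cluster S15, led by *Lyz2*, *Pf4* and *C1qa*, held 54 cKO cells and 1 control cell, and cluster S16, led by *Ccl5*, *Cd3g* and *Gzmc*, held 35 cKO and 2 control cells. In the cKO library *Serpinb6a* had 420 CPM in S15 and 56.7 CPM in S05 (7.4-fold, 5.21 to 10.7), and *Serpinb8* 137 CPM in S15 and 40.0 CPM in S05 (3.42-fold). *Serpinb1a* had 387 CPM in S16 and 16.8 CPM in S05 (23.1-fold, 12.5 to 46), *Serpinb6b* 104 CPM in S16 and 18.1 CPM in S05 (5.74-fold), and *Serpina3g* 118 CPM in S16 and 6.45 CPM in S05 (18.2-fold, 6.46 to 63.2). Within S05 alone, *Serpinb6a* had 56.7 CPM in cKO and 49.2 CPM in control cells (1.15-fold, 0.621 to 2.28) and *Serpinb8* 40.0 CPM in cKO and 21.1 CPM in control cells (1.9-fold, 0.78 to 5.56), neither past the fold. *Serpinb1a* had 13 UMIs in cKO and 1 UMI in control S05 cells (4.77-fold), and *Serpinb6b* 14 UMIs in cKO and 0 UMIs in control S05 cells, both under the minimum of 20 UMIs. The Tomato-negative library had only 13 immune-like cells, but 130 cells led by *Cxcl2*, *Ccl4* and *Ccl3* (cluster S12), in which *Serpinb8* had 133 CPM (97.5 to 176) and *Serpinf1* 67.8 CPM.

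Within S05, 2 members passed the fold, where 6.06% of all genes were higher in cKO. *Serping1* had 76.1 CPM in cKO and 7.02 CPM (2 UMIs) in control S05 cells (10.8-fold, 2.87 to 91.5), and *Serpinh1* 59.3 CPM in cKO and 17.6 CPM in control S05 cells (3.38-fold, 1.35 to 10.9). Marker transcripts of stromal and myoid cells also differed within S05. The 8 Tcf21 stromal markers summed to 1138 CPM in cKO S05 cells, with 8 of 8 above 0, and to 70.2 CPM in control S05 cells, with *Lum* and *Dpt* at 0. The 6 myoid markers summed to 966 CPM in cKO and 351 CPM in control S05 cells, with 6 of 6 above 0 in both. The part of these transcripts in the result was not tested. With the doublets that Scrublet called removed, which left 280 cKO and 135 control immune-like cells, *Serping1* had 10 UMIs in cKO and 0 UMIs in control cells and *Serpinh1* 12 UMIs in cKO and 1 UMI in control cells, both under the minimum of 20 UMIs. *Serpinf1* in S05 had 155 CPM in cKO and 137 CPM in control cells (1.13-fold, 0.781 to 1.67).

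**Figure D5:**
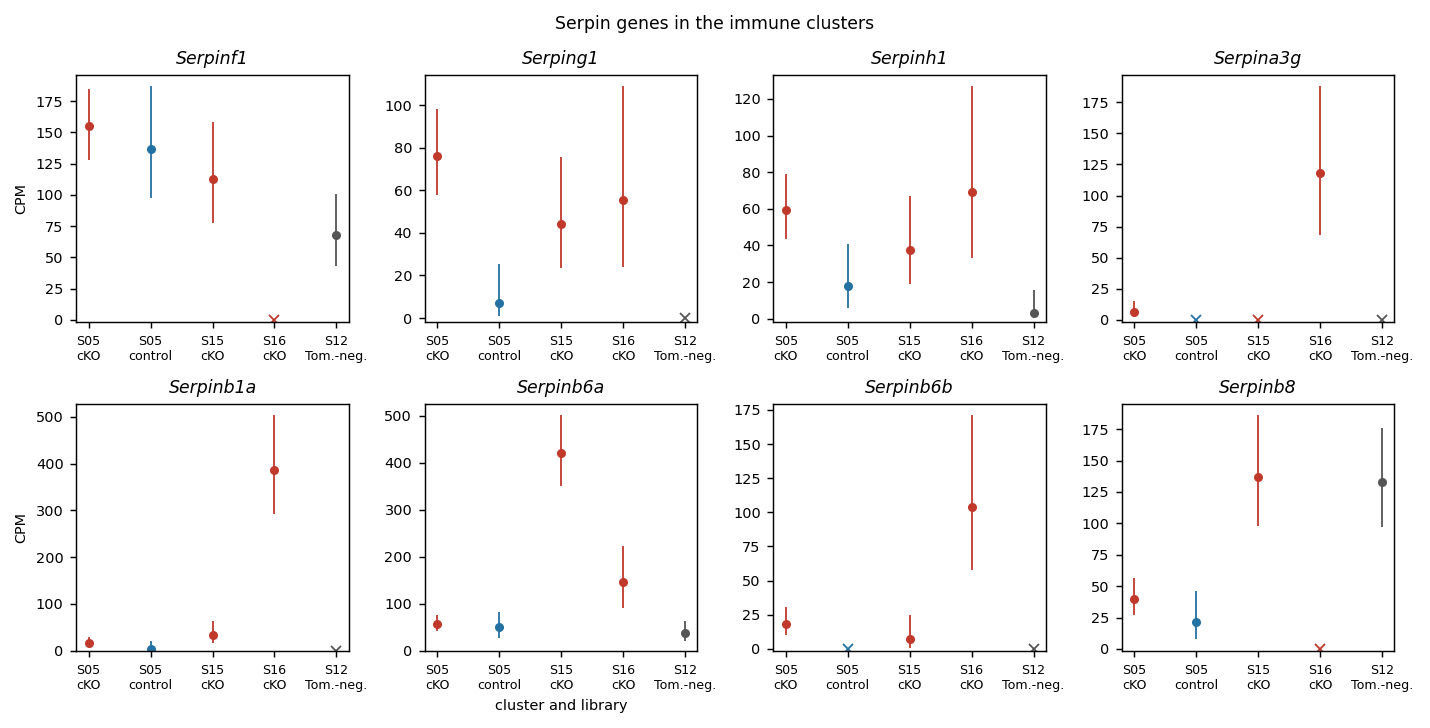
CPM of 8 Serpin genes in the immune clusters, by library, with exact 95% Poisson intervals: S05 in cKO and control cells, S15 and S16 in cKO cells and the Ccl3/Cxcl2 cluster S12 in Tomato-negative cells; crosses mark genes with no UMI there. Serpinb6a stands highest in S15 (420 CPM, against 36.7 CPM in S12), Serpinb8 in S15 and S12 (137 and 133 CPM) and Serpinb1a, Serpinb6b and Serpina3g in S16. Serping1 and Serpinh1 differ between cKO and control within S05 (76.1 and 7.02 CPM for Serping1).

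Proteases, receptors and partners of the serpins were read from 6 lists by the same rules. Of 7 plasminogen activation genes, *Plat*, tissue plasminogen activator, was highest in vascular smooth muscle-like cells of the Tomato-negative library (765 CPM), the cells with the most *Serpini1*, 8.13-fold (7.37 to 8.97) over Sertoli-like cells. *Ctsl*, a lysosomal protease of Sertoli cells, had 4518 CPM in Sertoli-like and 959 CPM in Tcf21 stromal-like cells (4.71-fold, 4.32 to 5.15). *Lrp8*, a receptor for reelin, had 262 CPM in Sertoli-like and 50.8 CPM in round spermatid-like cells (5.15-fold).

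In cKO over control, 2 genes of plasminogen activation were lower in Tcf21 stromal-like cells: *Plau*, urokinase, had 54.7 CPM in cKO and 119 CPM in control cells (0.461, 0.329 to 0.663) and *Vtn*, vitronectin, 10.8 CPM in cKO and 48.1 CPM in control cells (0.224, 0.129 to 0.418), out of 4 genes of that list with enough UMIs. Over all genes 3.48% were lower in stromal-like cells. *Ctsk* was also lower in these cells (40.6 CPM in cKO and 83.4 CPM in control cells). In myoid-like cells *F3*, tissue factor, was the 1 of 4 coagulation genes that passed, lower (57.1 CPM in cKO and 190 CPM in control cells, ratio 0.301, 0.269 to 0.336). Of 12 genes listed as collagen folding partners of HSP47, *Lox*, which cross-links collagen, alone passed there (24.1 CPM in cKO and 52.5 CPM in control cells, lower). A count of 1 in 12 is near the 6.73% of all genes that were lower in myoid-like cells. None of these 12 passed in stromal-like cells, where 1.74% of all genes were higher and 3.48% lower. In immune-like cells *Plau* was lower (47.8 CPM in cKO and 198 CPM in control cells, ratio 0.241, 0.165 to 0.354), where 7.36% of all genes were, while *Plaur*, *Lrp1*, *C1s1*, *F2r* and the granzymes *Gzma*, *Gzmb* and *Gzmc*, the last of them a leading gene of S16, were higher. The granzymes made up 3 of the 7 granule and lysosomal proteases with enough UMIs there, where 8.02% of all genes were higher. In undifferentiated spermatogonia-like cells *Plat* was lower (4.48 CPM in cKO and 9.52 CPM in control cells), where 4.87% of all genes were, and *Vldlr* higher (7.46 CPM in cKO and 2.51 CPM in control cells), where 2.96% were. *Plat* in myoid-like cells (3.34 CPM in cKO and 3 UMIs in control cells) and *F2r* and *Plod2* in vascular smooth muscle-like cells were the other genes of the lists past the fold, all higher. No list gene passed in the cells led by *Trim71* and *Sohlh1*, in differentiating spermatogonia-like cells, in the cells led by *Stra8* and *Prss50* or in early spermatocyte-like cells.

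The 23 members under 20 UMIs in every class had between 1 and 52 UMIs in all 3 libraries together. The best supported were *Serpina3i*, with 9.06 CPM (17 UMIs) in cKO Leydig-like cells and 27.9% of its 50-base words in other genes, *Serpinb6d*, with 0.434 CPM (17 UMIs) in control late spermatocyte-like cells, *Serpina1d*, with 2 CPM (13 UMIs) in Tomato-negative Sertoli-like cells, and *Serpinb9d*, with 0.332 CPM (13 UMIs) in control late spermatocyte-like cells. A low count at this depth does not show that a gene is silent.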

How the data were processed

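Single testicular cells of 3 pooled libraries (3 mice each, per the study's methods) were captured with the Chromium 3' v2 kit. The authors made the UMI counts with Cell Ranger 2.1.1 on GRCm38 and used Seurat 3.1, and the deposited tables hold raw whole-number counts of UMIs. The Tomato-negative library is the part of the merged table whose barcodes end in _1, and the rest of that table repeats cells of the other libraries and was not used. Since reads come from the 3' end, counts do not scale with transcript length, and near-identical ends cannot be told apart.

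Cells were held to 200 to 7500 detected genes and to a mitochondrial share of 10% or less, where the study's written upper limit is 3500. Limits of 7500 genes and 5% mitochondrial counts, an alternative here, leave the numbers of cKO and control cells the study retained. All 3 libraries were log-normalized and clustered together in scanpy 1.11.5 with leidenalg 0.10.2 (2000 variable genes without the *Serpin* genes, 30 components, 20 neighbours, resolution 1 and 0.8), and somatic clusters were clustered again at 0.8. A cluster took a name from at least 3 markers, each in at least 10% of its cells, and these naming rules were changed once the clusters were known. Members and gene lists were chosen with earlier results of these data known. Scrublet called 365 cKO (5.03%), 366 Tomato-negative (4.8%) and 220 control (3.51%) cells doublets, which were left in. Library totals were 68602272 UMIs for cKO, 195380762 for Tomato-negative and 90453018 for control.

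UMIs were summed per class and library with numpy 2.4.6, scipy 1.17.1 and pandas 2.3.3 on Python 3.11.15. CPM have exact Poisson, shares Clopper-Pearson and ratios conditional binomial intervals at 95%. UMIs count molecules, not PCR copies, but molecules of 1 library are not independent mice, so the intervals cover counting error alone. For genes without a UMI, 3 UMIs served as the upper bound. The 2-fold call and its interval were tested on simulated counts of myoid-like cells, drawn with Poisson error only. The other steps and variation between mice were not simulated. Every *Serpin* gene with at least 20 counts in a class is named, as is every list gene past the fold, apart from 1 gene of each kind that is not reported here, though counts and sums cover all genes. Positions are from GENCODE M21 on GRCm38. Promoters of 40 members matched RefSeq by symbol. Both strands were searched for 10 motifs, the 4 given with the promoters and 6 more. Of all promoters, 8.4% held the heat-shock element TTCNNGAA, 8.47% the STAT element TTCNNNGAA, 37.9% the box CCAAT that NF-Y binds, 35.9% the Sp1 element GGGCGG, 35.1% the MYB element CAACNG and 11.4% the Gata-factor element AGATAA. The heat-shock and STAT letters overlap in places. Alternatives were other limits on cells, clusterings, removal of doublets, thinning to 1000 UMIs, another minimum count and another scaling.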

Additional observations from a re-analysis of the deposited data

How the results depend on the processing

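No paired analysis was possible because each group is 1 library. Leaving out a replicate was not possible for the same reason. The comparison within 1 shared cluster and the one without Leydig-like cells were chosen after seeing the data. Where a value below changed, the cause was not tested, except that thinning to 1000 UMIs per cell leaves fewer UMIs by construction, after which 1 call over all classes was made, of *Serpina3c* in myoid-like cells, in place of 11 others.

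Counts of *Serpin* genes past 2-fold in cKO over control moved as follows. In Tcf21 stromal-like cells the count of 0 became 1 with an upper limit of 3500 genes per cell, no upper limit, a mitochondrial limit of 5%, each library clustered on its own or Scrublet doublets removed. In myoid-like cells 3 became 1 with each library clustered on its own, 5 without doublets and 1 after thinning. In vascular smooth muscle-like cells 1 became 0 after thinning. In immune-like cells 6 became 0 after thinning and 2 within cluster S05, the ratio of *Serpinb1a* became 2.13 with the 5% mitochondrial limit, and *Serping1* and *Serpinh1* did not pass without doublets. The ratio of *Serpinh1* was 0.473 after thinning, on 3 UMIs in cKO and 2 UMIs in control cells (0.0542 to 5.66). In undifferentiated spermatogonia-like cells 1 became 0 with a limit of 3500 genes, no upper limit, 5% mitochondrial counts, 2 times the resolution, each library clustered on its own, doublets removed, thinning or cluster G11 alone. In differentiating spermatogonia-like cells 0 became 5, and in the cells led by *Stra8* and *Prss50* 0 became 1, with each library clustered on its own. The 3 members at least 4-fold higher in 1 class became 5 with the 5% mitochondrial limit and 6 without Leydig-like cells. The share of all genes rose with them, from 2.59% to 7.93% with the 5% limit and 5.84% without Leydig-like cells. The 5% limit left 29 Tomato-negative Leydig-like cells, so it also took that class out of the comparison.

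Of the ratios of called genes under the alternatives, 76 stayed past the fold in the same direction and 22 did not. The 1 that reversed was that of *Serpinh1* in thinned immune-like cells, on 3 cKO and 2 control UMIs. Of the levels 136 stayed and 14 moved, among them *Serpina5* in Sertoli-like cells, between 98.5 and 277 CPM. The class of highest level was the same for 16 to 23 of 23 members. Depth limits the small classes: the control library had 37 vascular smooth muscle-like, 98 stromal-like and 138 immune-like cells, where calls rest on as few as 1 or 2 UMIs, and the cKO library 30 early spermatocyte-like cells. Scaling by the median ratio and a minimum of 10 UMIs changed no count of calls.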
